A study of Mus musculus with 12 samples.

Results

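Acute-phase and alarmin genes were followed in gonadal white adipose tissue (GWAT) of male mice as a set of 9 genes of the 55281 in the table of all genes: the orosomucoids Orm1 and Orm2, haptoglobin (Hp), the serum amyloid A genes Saa1, Saa2 and Saa3, the calprotectin subunits S100a8 and S100a9, and lipocalin 2 (Lcn2). They were taken by gene symbol, and each symbol matched 1 row. Libraries in 4 groups of 3 were sequenced as bulk RNA, and each library held GWAT pooled from 3 mice. WT mice were Cre-negative littermates with the floxed Hoip allele (Hoip fl/fl AdipoQ.Cre-), and HoipA-KO mice carried the same allele with Cre driven by the Adiponectin promoter in mature adipocytes (Hoip fl/fl AdipoQ.Cre+), so both genotypes shared the floxed allele. Either genotype received a control diet (CD, 14% fat in the labels) or a high-fat diet (HFD, 60% fat) for 16 weeks from 6 weeks of age, and mice were 22 to 24 weeks old at collection.

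Acute-phase proteins are secreted proteins whose blood level changes in inflammation. The liver makes most of them, and adipocytes also make haptoglobin, orosomucoid and, in the mouse, Saa3. Cytokines such as IL-6, IL-1β and TNF induce their genes through STAT3, C/EBP factors and NF-κB. HOIP, encoded by Rnf31, is the subunit of the ubiquitin ligase LUBAC that builds linear ubiquitin chains and acts upstream of NF-κB. Alarmins are intracellular proteins that signal danger once released. S100A8 and S100A9 form calprotectin, which is abundant in neutrophils and monocytes, and LCN2, stored in neutrophil granules and made by several epithelia, binds bacterial siderophores.

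The libraries held 30513446 to 60540225 counts, and levels are given as CPM, read counts scaled to a common library total, here with TMM over all 12 libraries. At this depth a count of 3, taken as the floor, stood for 0.0533 to 0.0996 CPM. Rnf31 ranged from 12.8 to 22.5 CPM and did not pass the test between genotypes on either diet (log2 fold changes of -0.08 on CD and 0.13 on HFD, adjusted p = 0.654 and 0.491, edgeR's quasi-likelihood test). The tissue also holds cells without Cre, and counts per gene do not separate deleted from remaining exons. All 10 adipocyte markers were detected in every library, with a sum of 13310 to 47780 CPM in WT CD. RNA of neighbouring male organs was also present. The sum of 10 epididymal and 7 male germ cell markers was 15500 CPM in WT CD replicate 2, 9940 in WT CD replicate 3, 1400 in HoipA-KO HFD replicate 1, 118 in HoipA-KO HFD replicate 3 and 87.4 in HoipA-KO CD replicate 3, and 0.2 to 18.6 CPM in the other 7 libraries. WT CD replicate 3 is missing from the comparisons the authors deposited and was left out of the fit here, and its values are printed with the others. Values without all 5 of these libraries are given beside the results they touch. In that fit WT CD and HoipA-KO HFD have 1 library each, which is assumed to vary like the other groups.

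Of the 9 genes, 7 passed the filter on low counts, while Saa1 and Saa2 did not. On CD, Orm1 was the only 1 of these 7 that passed the test between genotypes, and it fell, whereas 37.7% of all 18427 genes tested were called in that comparison. On HFD it was again Orm1 alone, which fell, with 11.8% of all genes called. In WT mice, HFD raised Saa3 alone, with 14.8% of all genes called. In HoipA-KO mice no member was called between diets by edgeR or by DESeq2, where 0.0% of all genes were called by edgeR and 7 by DESeq2, and Saa3 was the 1 member with an unadjusted p under 0.05 by edgeR. No member was called for the interaction of genotype and diet either, against 3.91% of all genes; here 0 members had an unadjusted p under 0.05, and DESeq2 called 0 as well. The median log2 fold change of the 7 members was -0.46 between genotypes on CD, where the median of all genes was -0.055, and 0.06 on HFD, where that of all genes was 0.058. It was 1.36 between diets in WT mice and 0.64 in HoipA-KO mice, with medians of all genes of 0.004 and -0.015. These medians cover only members that passed the filter.

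**Figure D1:**
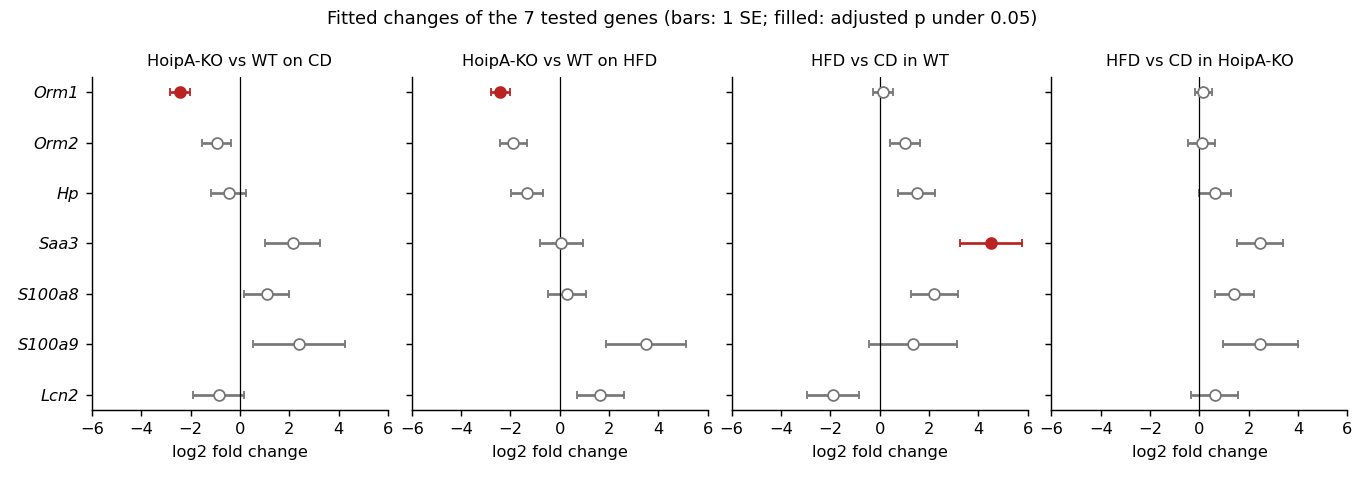
Log2 fold changes (x axis) of the 7 tested genes (y axis) in the 4 comparisons of genotype and diet, fitted over 11 libraries; bars are 1 SE and filled red points passed an adjusted p of 0.05. Only Orm1 between genotypes and Saa3 between diets in WT mice are filled, and the SE of S100a9 and Lcn2 is 0.94 to 1.85 log2 units.

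The orosomucoids, lipocalin-fold plasma proteins that bind basic and neutral drugs and dampen inflammation, held the difference between genotypes that passed the test. Orm1 (ENSMUSG00000039196, chr4:63344560-63348163, plus strand, GRCm38) stood at 239, 182 and 80.1 CPM in the WT CD libraries and at 273, 239 and 178 CPM in the WT HFD libraries. It stood at 34.7, 31.8 and 47.7 CPM in HoipA-KO CD and at 61.5, 19.4 and 48.5 CPM in HoipA-KO HFD. Every HoipA-KO library was thus below every WT library, WT CD replicate 3 included. On CD, libraries of the genotypes did not overlap for 54.3% of all genes tested over 11 libraries, and this was so for Orm1, Orm2 and Saa3 among the 7 members. Group means were 167 ± 80.6 CPM for WT CD, 230 ± 48.4 CPM for WT HFD, 38.1 ± 8.49 CPM for HoipA-KO CD and 43.1 ± 21.5 CPM for HoipA-KO HFD (SD, n = 3). Between genotypes Orm1 fell, by 2.43 on the log2 scale with the control diet (SE 0.40, adjusted p = 0.00175, edgeR) and by 2.41 with the high-fat diet (SE 0.38, adjusted p = 0.00999, edgeR). Over all 12 libraries the values were -2.13 (adjusted p = 0.00779) and -2.41 (adjusted p = 0.0358, edgeR), and with the 7 libraries low in epididymal and germ cell RNA they were -2.84 (adjusted p = 0.00742) and -3.55 (adjusted p = 0.0188, edgeR). Diet did not pass the test for Orm1 in WT mice (0.14, SE 0.40, adjusted p = 0.844, edgeR) or in HoipA-KO mice (0.16, SE 0.36, adjusted p = 1.0, edgeR), and the difference between the genotypes' diet responses was 0.02 (SE 0.54, adjusted p = 0.988, edgeR). In bulk tissue, fewer adipocytes and less RNA of a gene per adipocyte cannot be told apart.

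Orm2 (ENSMUSG00000061540, chr4:63362449-63365878, plus strand) lies next to Orm1 and was far lower. Per kilobase of annotated exons, so that genes can be compared, WT HFD tissue held a mean of 297 CPM of Orm1 and 7.46 CPM of Orm2. The Orm2 libraries were at 2.32, 3.41 and 1.69 CPM in WT CD, 5.21, 5.08 and 7.06 CPM in WT HFD, 1.32, 1.74 and 1.25 CPM in HoipA-KO CD, and 3.03, 0.466 and 1.19 CPM in HoipA-KO HFD. On HFD the groups did not overlap, as was the case for 44.3% of all genes tested there, but Orm2 missed the threshold (log2 fold change of -1.88, SE 0.55, adjusted p = 0.0538, edgeR). DESeq2's Wald test called it (-1.86, adjusted p = 0.00663), as did the edgeR fit without HoipA-KO HFD replicate 1 (-2.77, adjusted p = 0.0153) and that with the 7 libraries low in epididymal and germ cell RNA (-3.61, adjusted p = 0.0199). On CD its log2 fold change was -0.94 (SE 0.59, adjusted p = 0.231, edgeR). Between diets in WT mice that of Orm2 was 1.03 (SE 0.61, adjusted p = 0.281, edgeR), and the libraries did not overlap, as for 42.6% of all genes tested. Of the 100-base windows of Orm1 transcripts 6.95% occur unchanged in Orm2 transcripts, so some reads of one could be counted for the other, and their part in the Orm2 values was not tested. The third copy, Orm3, shares no such window with either. It was not among the members, and it was singled out after its values were seen. It stood at 14.4, 12.5 and 5.27 CPM in WT CD, 5.61, 1.58 and 1.68 CPM in WT HFD, and 0.0888 to 0.427 CPM in the 6 HoipA-KO libraries. Orm3 fell in HoipA-KO mice on CD by 6.20 and on HFD by 3.67 on the log2 scale (adjusted p = 0.000527 and 0.0140, edgeR), so 2 of the 3 copies passed the test on both diets.

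**Figure D2:**
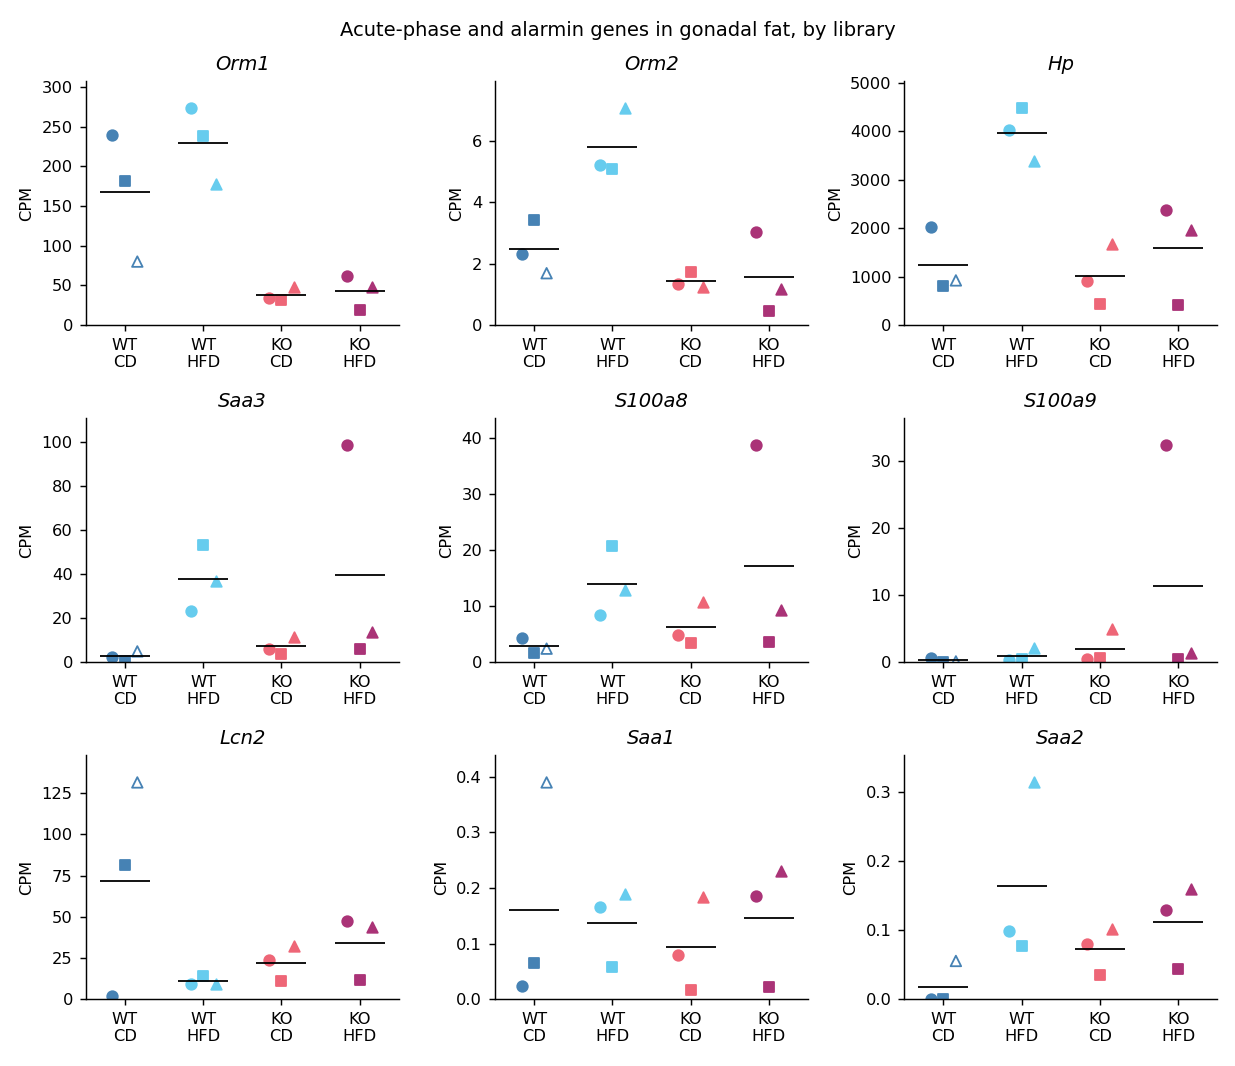
CPM (y axis, linear, own scale per panel) of the 9 genes in each of the 12 libraries, by group (x axis; KO stands for HoipA-KO); circles, squares and triangles are replicates 1, 2 and 3, the open triangle is WT CD replicate 3, and lines are means of 3 libraries. Orm1 separates the genotypes, and Hp, Saa3, Orm2, S100a8 and Saa2, the last near the floor, separate the diets in WT mice. In HoipA-KO HFD 1 library stands far above the others for Saa3, S100a8 and S100a9, and Lcn2 is highest in 2 WT CD libraries.

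Haptoglobin, which binds free haemoglobin for uptake by CD163, was the most abundant member. Hp (ENSMUSG00000031722, chr8:109575128-109579172, minus strand) reached 2468 CPM per kilobase in WT HFD tissue, above the 297 CPM per kilobase of Orm1. Its libraries stood at 2030, 797 and 923 CPM in WT CD and at 4028, 4477 and 3384 CPM in WT HFD, so the WT diets did not overlap, as for 42.6% of all genes tested. HoipA-KO libraries stood at 916, 434 and 1676 CPM on CD and at 2378, 413 and 1960 CPM on HFD. Between diets in HoipA-KO mice libraries overlapped for all 7 tested members and did not for 5.92% of all genes. On HFD all 3 HoipA-KO libraries were below the WT libraries, whereas on CD the genotypes overlapped. Genotypes on HFD did not overlap for 44.3% of all genes tested. No comparison of Hp passed the test over the 11 libraries. The log2 fold change was 1.5 between diets in WT mice (SE 0.75, adjusted p = 0.201, edgeR), -1.32 between genotypes on HFD (SE 0.65, adjusted p = 0.195, edgeR) and -0.46 between genotypes on CD (SE 0.71, adjusted p = 0.636, edgeR). With the 7 libraries low in epididymal and germ cell RNA, Hp had log2 fold changes between genotypes of -1.58 on CD and -3.25 on HFD. That fit keeps 1 WT CD library, replicate 1, the highest of its group at 2030 CPM. It keeps 1 HoipA-KO HFD library, replicate 2, the lowest of its group at 413 CPM. Over the 11 libraries without WT CD replicate 1, the value on CD was 0.37.

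Adipocyte markers moved with genotype beside both genes: 9 of 10 fell in HoipA-KO mice on CD and 10 of 10 on HFD, the medians of the list being -2.31 and -2.09 on the log2 scale. Of all genes tested, 18.8% fell on CD and 7.62% on HFD. Over all 12 libraries 9 of the 10 adipocyte markers fell on CD and 7 on HFD. Their summed level ranged from 13310 to 47780 CPM for WT CD, 20790 to 28230 for WT HFD, 5596 to 8633 for HoipA-KO CD and 4997 to 7664 for HoipA-KO HFD. Their part in the Orm1 and Hp levels was not tested. As a description chosen after the values were seen, each gene was set against Adipoq, the adipocyte hormone adiponectin, within each library. The ratio of Orm1 to Adipoq was 0.0637 to 0.0990 for WT CD, 0.105 to 0.110 for WT HFD, 0.0752 to 0.107 for HoipA-KO CD and 0.0956 to 0.165 for HoipA-KO HFD. The genotypes overlapped in this ratio on both diets. The ratio of Hp to Adipoq was 0.433 to 0.734 for WT CD, 1.62 to 2.01 for WT HFD, 1.46 to 3.36 for HoipA-KO CD and 2.03 to 6.38 for HoipA-KO HFD. Relative to Adipoq, Hp was therefore lowest in the 3 WT CD libraries, and Orm1 and Hp did not change by the same factor.

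**Figure D3:**
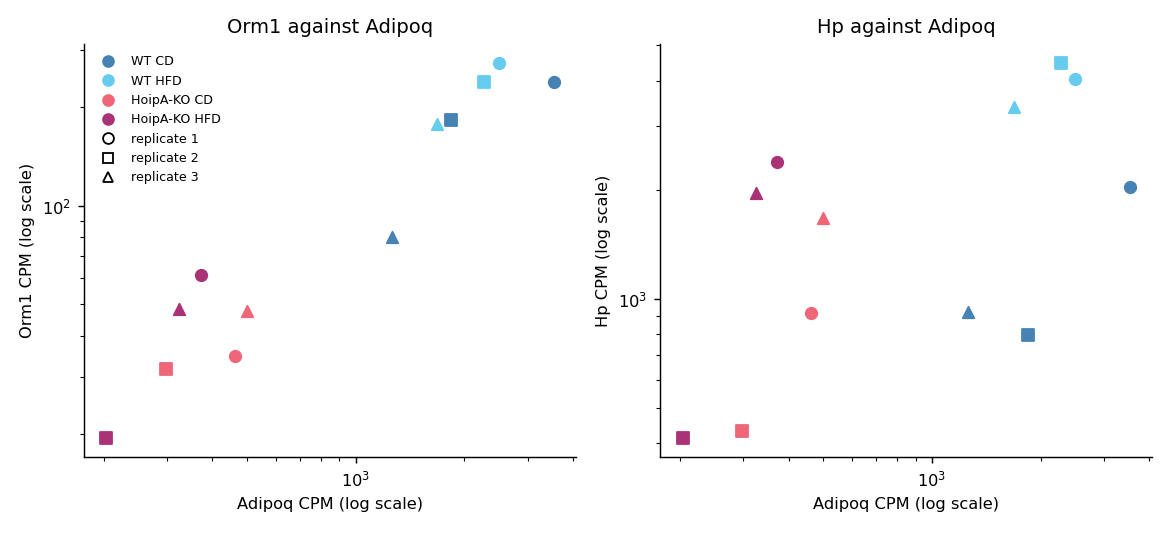
Orm1 (left) and Hp (right) against Adipoq, all in CPM on log scales, with 1 point for each of the 12 libraries, coloured by group and shaped by replicate. Orm1 and Adipoq are both lower in all 6 HoipA-KO libraries than in all WT libraries. For Hp the 3 WT CD libraries, at 797 to 2030 CPM, lie below the WT HFD libraries, at 3384 to 4477 CPM. Adipoq overlaps between these groups, at 1258 to 3542 CPM in WT CD and 1684 to 2493 CPM in WT HFD.

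Hepatocyte markers did not move as 1 block. Of the 8, Apoa1, Apoa2, Ttr, Serpina1a and Fgb were highest in WT HFD replicate 1, at 1.56 to 6.21 CPM. Alb, serum albumin, was at 4.25 to 28.5 CPM in the WT libraries, with 28.5 CPM in WT CD replicate 1 and 27.7 CPM in WT HFD replicate 1, and at 0.480 to 9.60 CPM in the HoipA-KO libraries. Ahsg ran the other way, at 0.0975 to 2.95 CPM in WT and 4.32 to 13.3 CPM in HoipA-KO libraries. The summed level was 1345 to 5420 CPM in WT CD, 160 to 1143 CPM in WT HFD, 25.8 to 120 CPM in HoipA-KO CD and 24.3 to 57.1 CPM in HoipA-KO HFD, mostly Cyp2e1 in WT mice. Between genotypes 1 of the 8 rose and 2 fell on CD, and 1 rose and 1 fell on HFD. The part of hepatocyte RNA in the Orm1, Orm2 and Hp levels was not tested.

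Saa3, an apolipoprotein of high-density lipoprotein made outside the liver by adipocytes and macrophages, had the largest fold change with diet in WT mice of the 7 tested members. Saa3 (ENSMUSG00000040026, chr7:46711998-46715700, minus strand) stood at 2.56, 0.782 and 4.94 CPM in WT CD and at 23.1, 53.3 and 36.7 CPM in WT HFD. It stood at 5.99, 3.89 and 11.6 CPM in HoipA-KO CD and at 98.4, 5.97 and 13.9 CPM in HoipA-KO HFD. All WT HFD libraries were above all WT CD libraries, and the WT diets did not overlap for 42.6% of all genes tested. HoipA-KO HFD ranged over 5.97 to 98.4 CPM, its replicate 1 lying above every other library. Saa3 rose with HFD in WT mice with a log2 fold change of 4.51 (SE 1.24, adjusted p = 0.0395, edgeR), and over all 12 libraries with one of 3.77 (adjusted p = 0.0391, edgeR). The direction held in every alternative, but the call was lost when 1 of several libraries was left out, with an adjusted p of 0.187 without WT CD replicate 2, 0.0930 and 0.0901 without WT HFD replicates 2 and 3, and 0.0501 to 0.0628 without WT HFD replicate 1 or 1 of the HoipA-KO CD libraries (edgeR). It was also lost with the 7 libraries low in epididymal and germ cell RNA (3.89, adjusted p = 0.0845, edgeR), where 8 of all genes were called.

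Between genotypes Saa3 had log2 fold changes of 2.14 on CD (SE 1.12, adjusted p = 0.155, edgeR) and 0.06 on HFD (SE 0.88, adjusted p = 0.969, edgeR). Without HoipA-KO HFD replicate 1 these were 2.06 (adjusted p = 0.0378) and -1.89 (adjusted p = 0.0864, edgeR), so the sign on HFD and the call on CD changed with that library. The sign on HFD also changed without WT HFD replicate 1 (-0.19, adjusted p = 0.927, edgeR). With the 7 libraries low in epididymal and germ cell RNA Saa3 fell in HoipA-KO mice on HFD (-2.64, adjusted p = 0.0432, edgeR). Between diets in HoipA-KO mice the log2 fold change was 2.44 (SE 0.93, unadjusted p = 0.0268, adjusted p = 1.0, edgeR). The interaction, -2.08 (SE 1.40, adjusted p = 0.409, edgeR), did not pass the test.

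Macrophage markers moved with diet and genotype too. Their summed level ran from 394 to 604 CPM in WT CD and from 2036 to 7566 CPM in WT HFD, where 8 of 9 rose. It ran from 14540 to 20750 CPM in HoipA-KO CD, where 8 of 9 rose against WT CD, and from 9022 to 18400 CPM in HoipA-KO HFD, where 2 of 9 rose against WT HFD and 0 over all 12 libraries. With the 7 libraries low in epididymal and germ cell RNA, 8 of 9 still rose between genotypes on CD and 1 on HFD, while 0 were called between diets in WT mice, the median log2 fold change there being 3.46 against 3.50 over 11 libraries. The HoipA-KO CD libraries thus had a higher macrophage marker sum than each WT HFD library and a lower Saa3 level, 3.89 to 11.6 CPM against 23.1 to 53.3 CPM. The part of macrophage number in the Saa3 level was not tested.

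S100a8 (ENSMUSG00000056054, chr3:90668978-90670035, plus strand), the smaller calprotectin subunit, ran close to Saa3. Its libraries were at 4.41, 1.69 and 2.43 CPM in WT CD, 8.37, 20.7 and 12.98 CPM in WT HFD, 4.79, 3.47 and 10.8 CPM in HoipA-KO CD, and 38.7, 3.64 and 9.30 CPM in HoipA-KO HFD. In each of the WT HFD, HoipA-KO CD and HoipA-KO HFD groups the order of the libraries was the same as for Saa3. The WT diets did not overlap, as for 42.6% of all genes tested. The log2 fold change of 2.21 missed the threshold (SE 0.96, adjusted p = 0.144, edgeR), whereas DESeq2's Wald test called it (2.17, adjusted p = 0.0417). As a description, the ratio of Saa3 to S100a8 was 0.462 to 2.03 in WT CD and 2.57 to 2.83 in WT HFD. It was 1.07 to 1.25 in HoipA-KO CD and 1.49 to 2.54 in HoipA-KO HFD. No difference of S100a8 between genotypes passed the test (1.09 on CD, SE 0.91, adjusted p = 0.369, and 0.30 on HFD, SE 0.78, adjusted p = 0.815, edgeR), and without HoipA-KO HFD replicate 1 the value on HFD was -1.08 (adjusted p = 0.292, edgeR).

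The sequence before the start of Saa3 and of S100a8 is shown because these genes ran together over the libraries. The stretches end at the base before the outermost annotated transcript start, and capitals mark matches to TTNNGNAA, a pattern of C/EBP binding sites, on either strand (RefSeq promoter table, GRCm38, 5′ to 3′ along the gene).
Saa3, chr7:46715701-46715926, minus strand: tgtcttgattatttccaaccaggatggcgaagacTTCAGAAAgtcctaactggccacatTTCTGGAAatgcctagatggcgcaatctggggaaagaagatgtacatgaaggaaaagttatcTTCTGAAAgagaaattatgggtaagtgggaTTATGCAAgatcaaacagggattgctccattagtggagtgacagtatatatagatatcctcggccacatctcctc
S100a8, chr3:90668821-90668977, plus strand: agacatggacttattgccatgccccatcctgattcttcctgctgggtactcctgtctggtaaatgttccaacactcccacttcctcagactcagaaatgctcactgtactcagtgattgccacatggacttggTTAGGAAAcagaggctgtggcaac
Saa3 held 4 matches and S100a8 held 1, without overlap. In the 250 bases before the RefSeq start, Saa1, Orm2 and S100a9 held 2 matches each and Saa2 and Lcn2 held 1 each, and 36.9% of all 32851 promoters held at least 1. TTCNNNGAA, the pattern of STAT sites, searched on both strands as well, was in none of the 7 members with an entry and in 7.02% of all promoters. TATAAA was in those of Orm2 and S100a8 and in 12.4% of all. Hp and Orm1 had no entry.

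S100a9 (ENSMUSG00000056071, chr3:90692632-90695721, minus strand), the other calprotectin subunit, had a lower CPM than S100a8 in all 12 libraries. It was at 0.707, 0.0869 and 0.130 CPM in WT CD, 0.398, 0.500 and 2.09 CPM in WT HFD, 0.521, 0.569 and 5.02 CPM in HoipA-KO CD, and 32.4, 0.511 and 1.41 CPM in HoipA-KO HFD. Per kilobase of exons, WT HFD tissue had a mean of 20.2 CPM of S100a8 and 1.91 CPM of S100a9. S100a8 exceeded S100a9 by 6.20 to 41.5 times in the WT HFD libraries and by 1.196 times in HoipA-KO HFD replicate 1, as the ratio of their CPM. No comparison of S100a9 passed the test by edgeR. Between genotypes on HFD the log2 fold change of 3.49 (SE 1.61, adjusted p = 0.169, edgeR) was called by DESeq2's Wald test (3.54, adjusted p = 0.0329) and became -0.05 (adjusted p = 0.984, edgeR) without HoipA-KO HFD replicate 1.

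**Figure D4:**
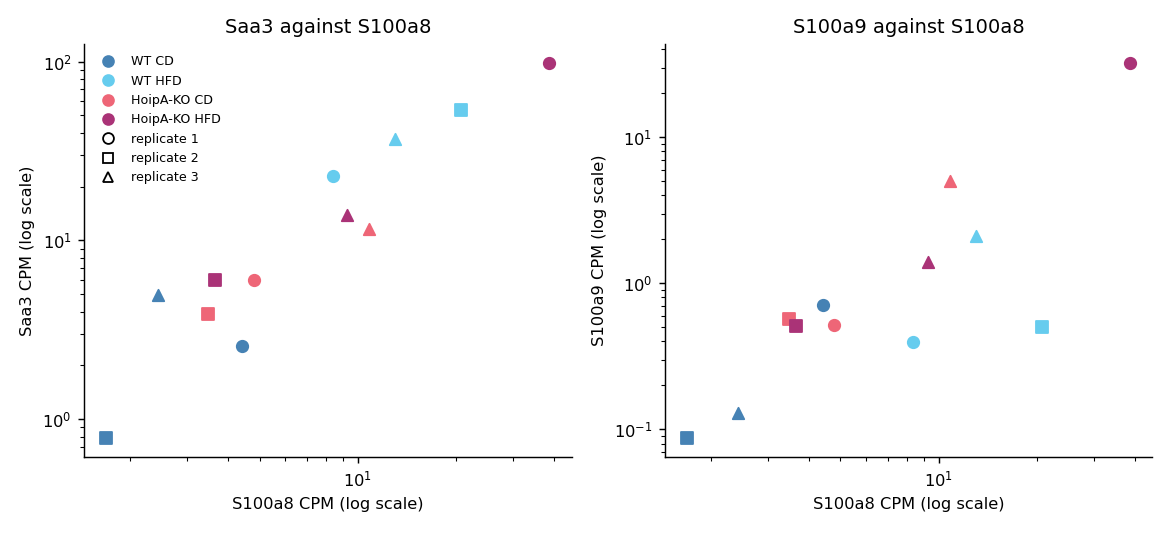
Saa3 (left) and S100a9 (right) against S100a8, all in CPM on log scales, 1 point for each of the 12 libraries. HoipA-KO HFD replicate 1 is highest for all 3 genes, at 98.4, 32.4 and 38.7 CPM, and the WT HFD libraries are high for Saa3 and S100a8 but at 0.398 to 2.09 CPM for S100a9.

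Neutrophil markers were high in the libraries where S100a9 was high within HoipA-KO mice. In HoipA-KO HFD replicate 1, 10 of the 12 markers had their highest level of all libraries, the exceptions being Prtn3 and Ltf. There the granule genes Ngp, Camp, Mpo and Elane stood at 9.51, 5.91, 4.31 and 1.43 CPM, against 0.0222 to 0.409 CPM in HoipA-KO HFD replicates 2 and 3. Prtn3, at 2.97 CPM, and Csf3r, at 12.4 CPM, were close to the 2.61 and 12.1 CPM of replicate 3. In HoipA-KO CD replicate 3, where S100a9 was 5.02 CPM, 10 of the 12 markers were highest within the group, with Ngp at 0.594 CPM, Camp at 0.819 CPM, Mpo at 0.389 CPM and Retnlg at 0.635 CPM, against 0 to 0.178 CPM in the other HoipA-KO CD libraries. The summed level of the 12 markers was 10.7 to 11.96 CPM in WT HFD, 21.6 to 28.9 CPM in HoipA-KO CD and 21.5, 24.0 and 88.8 CPM in HoipA-KO HFD. It was 10.8 to 245 CPM in WT CD, where 232 CPM were Ltf in replicate 2, the library with the most epididymal RNA. Ly6g, the defining surface marker of mouse neutrophils, was at 0 to 0.06 CPM in all 12 libraries. In WT HFD, where S100a8 stood at 8.37 to 20.7 CPM, Ngp was at 0 to 0.03 CPM and Camp at 0.02 to 0.04 CPM. HoipA-KO HFD replicate 1 and HoipA-KO CD replicate 3 also had the highest sums of epididymal and germ cell markers in their groups, 1400 and 87.4 CPM. The part of neutrophil RNA in the S100a9 level was not tested. That of epididymal and germ cell RNA was not tested beyond the fit of the 7 libraries low in it.

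Lcn2 (ENSMUSG00000026822, chr2:32384633-32388252, minus strand) varied most within WT CD. Its libraries were at 2.07, 81.2 and 131 CPM in WT CD, a range of 63.4-fold, and at 9.47, 14.0 and 9.63 CPM in WT HFD. They were at 23.7, 11.2 and 32.1 CPM in HoipA-KO CD and at 47.4, 11.9 and 43.9 CPM in HoipA-KO HFD. The 5 highest levels, 32.1 to 131 CPM, were in the 5 libraries with more than 50 CPM of epididymal and germ cell markers, and the other 7 libraries stood at 2.07 to 23.7 CPM. The part of this RNA in the Lcn2 level was not tested beyond the fit without these libraries. None of the 4 differences passed the test over 11 libraries: -0.86 between genotypes on CD (SE 1.04, adjusted p = 0.536, edgeR), 1.65 between genotypes on HFD (SE 0.97, adjusted p = 0.270, edgeR), -1.90 between diets in WT mice (SE 1.05, adjusted p = 0.241, edgeR) and 0.61 between diets in HoipA-KO mice (SE 0.94, adjusted p = 1.0, edgeR). Without WT CD replicate 2 the first was 3.46 (adjusted p = 0.0184) and the third 2.42 (adjusted p = 0.128, edgeR), with 1 WT CD library left. Without WT CD replicate 1 the third was -2.85 and was called as a fall (adjusted p = 0.0137, edgeR). With the 7 libraries low in epididymal and germ cell RNA they were 3.08 (adjusted p = 0.0128) and 2.42 (adjusted p = 0.0845, edgeR). The sign of both thus turned with 1 library, and the rise in HoipA-KO CD rests on WT CD replicate 1 alone.

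**Figure D5:**
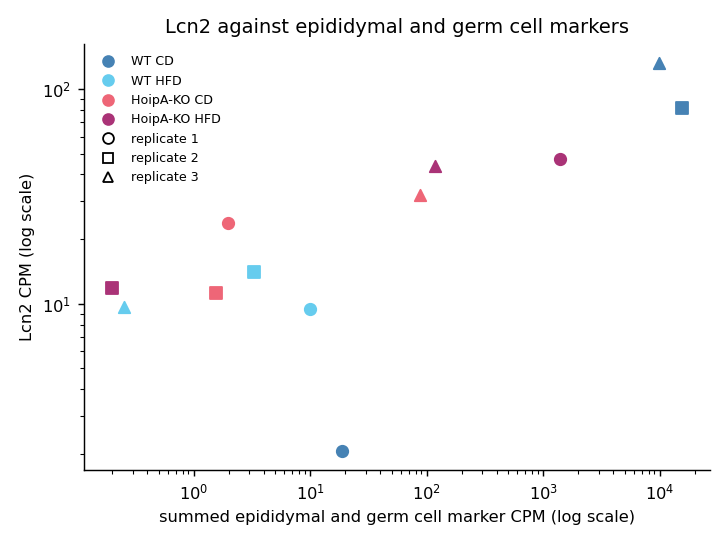
Lcn2 in CPM (y axis, log scale) against the summed CPM of 17 epididymal and male germ cell markers (x axis, log scale), 1 point for each of the 12 libraries. The 5 libraries above 50 CPM on the x axis are the 5 highest for Lcn2, at 32.1 to 131 CPM, and WT CD replicate 1 is the lowest, at 2.07 CPM.

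Saa1 (ENSMUSG00000074115, chr7:46740497-46742980, minus strand) and Saa2 (ENSMUSG00000057465, chr7:46751790-46754313, plus strand), the plasma forms that the liver secretes, were near the floor and did not pass the filter on low counts. Saa1 had 1, 3 and 21 counts in WT CD, 5, 3 and 9 counts in WT HFD, 4, 1 and 9 counts in HoipA-KO CD and 10, 1 and 13 counts in HoipA-KO HFD. Saa2 had 0, 0 and 3 counts in WT CD, 3, 4 and 15 counts in WT HFD, 4, 2 and 5 counts in HoipA-KO CD and 7, 2 and 9 counts in HoipA-KO HFD. At most this is 0.390 CPM of Saa1 and 0.314 CPM of Saa2, and 5 libraries were at or under 3 counts for Saa1 and 6 for Saa2. Transcripts of Saa1 and Saa2 share 230 windows of 100 bases, 8.96% and 8.63% of their windows, and none with Saa3. With no filter on low counts, Saa1 was called in no comparison, and Saa2 was called between diets in WT mice (adjusted p = 0.0438, edgeR), with WT HFD at 0.0769 to 0.314 CPM and WT CD at 0 to 0.0557 CPM. Both WT CD libraries of that fit were at 0 counts and WT HFD replicate 1 was at the floor of 3 counts. In the 3 other fits that kept Saa2 this difference missed the threshold (adjusted p = 0.0539 to 0.180, edgeR).

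Lists of related genes are read against all genes tested, of which 18.9% rose and 18.8% fell in HoipA-KO mice on CD and 4.2% rose and 7.62% fell on HFD, and of which HFD raised 9.35% and lowered 5.47% in WT mice. Of the 25 other acute-phase genes, 21 were tested. On CD 2 rose and 6 fell in HoipA-KO mice, in all a share near the 37.7% of all genes, the list having a median log2 fold change of -0.67, while 0 rose and 3 fell on HFD, for a median of -0.90, and over all 12 libraries 1 fell on HFD, namely Orm3. In WT mice HFD raised 6 and lowered 2, with a median of 1.35, and in HoipA-KO mice 0 were called. Complement C3 stood at 353 to 492 CPM in WT CD and at 1176 to 2004 CPM in HoipA-KO CD and rose there (2.04, adjusted p = 0.000761, edgeR). C3 also rose with HFD in WT mice, to 1150 to 1461 CPM in WT HFD. It was the only gene of this list called for the interaction and was not called between genotypes on HFD. C4b rose with HFD in WT mice too (1.52, adjusted p = 0.0131, edgeR). Steap4, a metalloreductase of adipocytes, fell in HoipA-KO mice on CD and on HFD (-1.31 and -1.38, adjusted p = 0.0181 and 0.0314, edgeR) and missed the threshold over all 12 libraries (-1.03 and -1.39, adjusted p = 0.0757 and 0.0936, edgeR). Serpina3n, a protease inhibitor, had values of -0.67 and -0.75 without passing the test (adjusted p = 0.101 and 0.0952, edgeR). C3 and Orm1 therefore had opposite signs between genotypes on CD.

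Of the 12 other alarmin genes, all tested, 5 rose and 0 fell in HoipA-KO mice on CD and 3 rose and 0 fell on HFD, while in WT mice HFD raised 2 and lowered 1. S100a6, a calcium-binding protein of the S100 family, rose in HoipA-KO mice from 91.4 to 194 CPM in WT CD to 639 to 854 CPM in HoipA-KO CD (2.40, adjusted p = 0.000705, edgeR) and also on HFD (0.97, adjusted p = 0.0424, edgeR). Over all 12 libraries 4 genes of this list rose on CD and 0 on HFD, where S100a6 was at 0.95 (adjusted p = 0.101, edgeR). Annexin A1, a resolving mediator (Anxa1), rose on CD (2.27, adjusted p = 0.00328, edgeR). S100a10 and S100a11 did not pass the test between genotypes on CD (0.60 and -0.11, adjusted p = 0.0727 and 0.689, edgeR) or on HFD. The median log2 fold changes of this list were 0.70 on CD and 0.55 on HFD.

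Of the 10 inducing cytokines 7 were tested, and 4 rose and 0 fell in HoipA-KO mice on CD. Tnf, at 0.171 to 0.464 CPM in WT CD and 2.81 to 4.29 CPM in HoipA-KO CD, rose by 3.75 on the log2 scale (adjusted p = 0.000540, edgeR). Osm, oncostatin M of the IL-6 family, rose on both diets (2.72 on CD and 1.40 on HFD, adjusted p = 0.00120 and 0.0301, edgeR). On HFD it was the only cytokine called, and 0 were called there over all 12 libraries, with Osm at 1.39 (adjusted p = 0.136, edgeR), or with the 7 libraries low in epididymal and germ cell RNA. Il1b rose by 2.50 (adjusted p = 0.0204) and Il6 by 2.37 (adjusted p = 0.0383, edgeR) on CD, and over all 12 libraries Il6 was called and Il1b was not (adjusted p = 0.0163 and 0.0669, edgeR). Both were low, with at most 1.65 CPM of Il1b and 0.622 CPM of Il6 in any library. Il6 had 1 to 4 counts in the WT libraries, near the floor of 3, and 8 to 35 in the HoipA-KO libraries. It passed the filter on low counts only through the HoipA-KO groups, so its call, 1 of these 4, is a description only. Lif did not pass the test (-0.60, adjusted p = 0.401, edgeR). In WT mice HFD raised Tnf and Osm (2.10 and 1.42, adjusted p = 0.0135 and 0.0411, edgeR).

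Of the 10 inducing transcription factors, all tested, Stat3 and Nfkb1 rose and Cebpa fell in HoipA-KO mice on CD, 3 of 10 against 37.7% of all genes, and 0 were called on HFD or between diets. Cebpa, which adipocytes need to mature, had a log2 fold change of -1.24 (adjusted p = 0.0265) and Stat3 one of 0.54 (adjusted p = 0.0345, edgeR). Over all 12 libraries Cebpa missed the threshold (-0.94, adjusted p = 0.118, edgeR). Rela and Nr1h3 did not pass the test (0.21 and -0.10, adjusted p = 0.212 and 0.783, edgeR).

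Of the 16 genes for receptors and clearance, all tested, 7 rose and 2 fell in HoipA-KO mice on CD and 2 rose and 1 fell on HFD. Cd163, the scavenger receptor for haptoglobin bound to haemoglobin, fell from 28.5 to 49.1 CPM in WT CD to 6.88 to 7.72 CPM in HoipA-KO CD and from 41.8 to 56.2 CPM in WT HFD to 13.2 to 14.7 CPM in HoipA-KO HFD (-2.37 and -1.82, adjusted p = 0.000452 and 0.00723, edgeR). Hmox1, the haem-degrading enzyme, rose (4.46 on CD and 1.61 on HFD, adjusted p = 0.000625 and 0.0401, edgeR). Tlr2, a receptor for microbial lipoproteins and serum amyloid A, rose too (2.61 on CD and 0.82 on HFD, adjusted p = 0.000452 and 0.0236, edgeR). Over all 12 libraries, where 503 of 18074 genes were called between genotypes on HFD against 2179 of 18427 over 11, Cd163 was the only gene of this list called on HFD (-1.83, adjusted p = 0.0163, edgeR), with adjusted p = 0.0705 for Hmox1 and 0.0795 for Tlr2 (edgeR). Tlr4, its cofactor Ly96, P2rx7 and Lrp1 rose on CD, with log2 fold changes of 1.51 to 2.81, and did not pass the test on HFD. The interaction of genotype and diet itself was called for Hmox1, Tlr2 and P2rx7 and not for Tlr4, Ly96 or Lrp1. Lrp2, the megalin receptor that takes up LCN2, fell on CD (-3.73, adjusted p = 0.0384, edgeR), with 213 CPM in WT CD replicate 2, the library with the most epididymal RNA, against 2.46 CPM in replicate 1, and missed the threshold over all 12 libraries (-3.31, adjusted p = 0.0600, edgeR). Cd36 and Bsg did not pass the test on CD (1.04 and -0.24, adjusted p = 0.103 and 0.333, edgeR). Median log2 fold changes between genotypes on CD were 2.37 for the cytokines, 0.18 for the transcription factors and 1.43 for the receptors and clearance genes, and on HFD 1.02, 0.07 and 0.27, beside the medians of all genes of -0.055 and 0.058. With the 7 libraries low in epididymal and germ cell RNA, the genes that rose and fell in HoipA-KO mice on CD numbered 2 and 5 for the other acute-phase genes, 5 and 2 for the alarmins, 2 and 0 for the cytokines, 1 and 2 for the transcription factors and 7 and 1 for the receptors and clearance genes. Between diets in WT mice 0 genes of these 5 lists were then called.

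The genes most like each member over the 12 libraries were sought among tested genes with a mean of at least 1 CPM, by Pearson's r of log2(CPM + 1). The libraries share their groups and their tissue makeup, so r is a description. Orm1 was most like Aldh1l1, a folate enzyme (r = 0.991), and Snrpn (r = 0.989), and Orm2 most like Lctl (r = 0.959) and Sorl1 (r = 0.929). Hp was most like Lrg1, another acute-phase glycoprotein (r = 0.979), at 83.0 to 492 CPM, and Wfdc21 (r = 0.972). Saa3 and S100a8 had Fcrls among their nearest genes in both cases (r = 0.915 and 0.894), with Meg3 for Saa3 (r = 0.902) and Pdlim7 for S100a8 (r = 0.897). S100a9 was most like Des, the muscle intermediate filament desmin (r = 0.911), and Csrp1 (r = 0.876), and Lcn2 most like Marcksl1 (r = 0.960) and Ctxn1 (r = 0.944). No gene was nearest to both S100a8 and S100a9.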

How the data were processed

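GWAT of male mice was sequenced as poly-A selected, stranded, paired-end libraries. The authors trimmed reads with Trim Galore 0.6.7, aligned them with STAR 2.7.10a and quantified them with Salmon 1.5.2. They deposited estimated counts per gene, not normalized, for all genes and for protein-coding genes. The submitters' processing notes name GRCm38, whereas the methods name a human assembly; the identifiers are mouse genes, and 51948 of 55281 are in GENCODE M21, from which GRCm38 coordinates and exon lengths were taken. The authors also deposited DESeq2 fold changes and p-values for 3 comparisons, which were not used.

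The estimated counts were rounded, filtered with filterByExpr, scaled by TMM and fitted with edgeR 4.0.16 (R 4.3.3) in 1 quasi-likelihood model of the 4 groups over 11 libraries, without WT CD replicate 3 as in the authors' comparisons, with Benjamini-Hochberg adjustment over all 18427 genes at 0.05 and a prior count of 0.125. Printed CPM were scaled over all 12 libraries. Libraries are pools of 3 mice, and p-values measure the spread between pools. The members, gene lists and tests were chosen with earlier results of these data known. The text gives all 9 members, by name up to 4 genes of each list with the highest mean CPM, and cytokine and receptor genes called between genotypes, except 1 receptor gene that is counted but not reported here by name; Orm3, the Adipoq ratios and the marker genes named singly were chosen after their values were seen. Scripts were tested on simulated data. Alternatives were DESeq2 1.42.0 (size factors, Wald test), library size alone, other filters, all 12 libraries, a replicate block, protein-coding genes only, only the 2 groups compared, and leaving out each library; the fit of 7 libraries with at most 50 CPM of epididymal and germ cell markers was added after seeing the data.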

Additional observations from a re-analysis of the deposited data

Results flagged for a closer look

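Lcn2 and Saa1 were higher in WT CD replicate 3, which the comparisons leave out, than in each of the 11 libraries they use. Lcn2 stood at 131.4 CPM there, against a highest value of 81.2 CPM elsewhere, in WT CD replicate 2. Saa1 stood at 0.3897 CPM, from 21 counts, against a highest value of 0.231 CPM elsewhere, in HoipA-KO HFD replicate 3. The same library held 9936 CPM of the 7 male germ cell markers, the highest sum of the 12 libraries, and its part in both values was not tested. No member passed the test for the interaction of genotype and diet, and groups of 3 libraries are too small for a test of outlying samples.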

How the results depend on the processing

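Apart from the counts of members called, 30 fold changes were recomputed under the alternatives, giving 624 values. Of these, 564 kept their direction and their side of the threshold, 13 passed it anew, 10 lost it and 37 turned in direction. The fall of Orm1 between genotypes passed the threshold in every alternative on both diets, at -2.84 to -2.13 on CD and -3.55 to -2.06 on HFD, whereas the rise of Saa3 with HFD in WT mice kept its direction and lost the threshold in 10 alternatives. The fit of the 7 libraries low in epididymal and germ cell RNA has 1 library each in WT CD and HoipA-KO HFD, so only its fold changes are given here. Directions turned there for Lcn2 (3.08), S100a8 (-0.089) and S100a9 (-0.36) between genotypes on CD, for Saa3 (-2.64), S100a8 (-1.93) and S100a9 (-0.96) on HFD, and for Lcn2 (2.42) and Orm1 (-0.047) between diets in WT mice. They also turned for Hp (-0.69), Lcn2 (-0.54), Orm1 (-0.76), Orm2 (-1.70), S100a8 (-0.165) and S100a9 (-0.081) between diets in HoipA-KO mice and for Orm1 in the interaction (-0.71). DESeq2's Wald test called 3 members between genotypes on HFD and 2 between diets in WT mice, where it called 4410 and 4551 of all 18427 genes. Requiring 10 counts in every library, or keeping protein-coding genes only, gave 2 member calls between genotypes on HFD, beside 2663 of 14339 and 2370 of 15617 genes. No filter gave 2 between diets in WT mice, beside 2732 of 31499 genes. Saa2 was the second there, although both its WT CD libraries were at 0 counts. Fitting only the 2 groups compared gave 0 member calls between diets in WT mice, where 0 of all 17200 genes were called. Over all 12 libraries Orm1 had an interaction of -0.28, and the median of all genes between genotypes on CD moved from -0.055 to -0.21. The cause of these changes was not tested.

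Same-numbered libraries of different groups had no common sign in their deviations from group means: their correlations ran from -0.477 to 0.372, with 5 of 15 over 0.1. With so few libraries per group these correlations cannot show whether the numbers pair the samples. With a replicate block 1 member was called between genotypes on each diet, beside 5893 of 18427 genes on CD and 2561 on HFD. Between diets in WT mice 0 members and 1502 genes were called, and the adjusted p of Saa3 was 0.0572 (edgeR). Under the replicate block, directions turned for Saa3 (-0.71) and S100a8 (-0.21) between genotypes on HFD, for Orm2 between diets in HoipA-KO mice (-0.026) and for Orm1 in the interaction (-0.041).

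Each library was left out in turn. Leaving out WT CD replicate 1 or 2 leaves 1 WT CD library, so those fits enter only the fold change ranges below. In the other fits 1 to 2 members were called between genotypes on CD and 1 to 2 on HFD. Beside them 5082 to 7041 genes were called on CD and 279 to 2601 on HFD, of 18136 to 18376 tested. Between diets in WT mice 0 to 1 members and 1045 to 2805 genes were called. For the interaction 0 members and 1 to 999 genes were called. On CD the second member was Saa3, without HoipA-KO HFD replicate 1. Between genotypes on CD, Hp ranged from -1.10 to 0.37 and Lcn2 from -1.83 to 3.46. On HFD, Saa3 ranged from -1.89 to 0.57, S100a8 from -1.08 to 0.77 and S100a9 from -0.046 to 4.65. Between diets in WT mice Lcn2 ranged from -2.85 to 2.42 and Orm1 from -0.045 to 0.37. In HoipA-KO mice Orm1 ranged from -0.15 to 0.51, Orm2 from -0.78 to 0.51 and S100a9 from -1.06 to 4.34, and the interaction of Orm1 from -0.21 to 0.37. Depth limits Saa1 and Saa2, at 0 to 21 counts, and S100a9 in WT CD, at 4 to 29 counts.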
